A study of Mus musculus with 15 samples.

Results

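The genes described are 10 autophagy genes of the mouse, Sqstm1, Map1lc3b, Gabarapl1, Atg5, Atg7, Ulk1, Tfeb, Wipi1, Becn1 and Bnip3, picked by name out of the 51912 gene rows of an RNA-seq table. All 10 passed the filter on low counts. The table holds 15 libraries in 5 groups of 3 biological replicates, all of wild-type cells with no treatment named. The culture began with 6 days on a feeder layer of 40LB fibroblasts in medium that held 100 ng/ml of IL-4, and unsorted B cells taken at its end form the day 6 group. The other 4 groups are day 8 cells, kept off the feeder and without stimulation for the last 2 days and then sorted: IgE iGC, IgG1 iGC, IgE PC and IgG1 PC. PC are plasma cells, the antibody-secreting end stage of the B cell, and iGC is the labels' name for the sorted cells of the same isotype that had not become PC. The labels do not say whether replicates came from separate mice or cultures, so the p-values measure only the spread between these samples. The study's title concerns the formation and survival of IgE plasma cells, and the 5 groups allow autophagy genes to be compared between isotypes and between stages.

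Autophagy encloses cytoplasm in a double membrane, the autophagosome, and delivers it to the lysosome for breakdown. The ULK1 kinase complex starts the process, a lipid kinase complex built around Beclin 1 marks the membrane, WIPI proteins read that mark, and a conjugation system that needs ATG7 and ATG5 attaches proteins of the ATG8 family to the growing membrane. Receptors such as p62 bind cargo and ATG8 proteins, and TFEB is a transcription factor of lysosomal and autophagy genes. In plasma cells autophagy is known to limit the endoplasmic reticulum and to support the survival of long-lived cells.

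Library totals ran from 17740876 expected counts (IgE iGC replicate 3) to 54067953 (IgG1 PC replicate 2), and the lowest count of any of the 10 genes in any library was 27, for Wipi1. Immunoglobulin genes took 19.8 to 21.5% of the counts in IgE PC, 15.3 to 21.7% in IgG1 PC and 1.39 to 1.62% elsewhere. Levels are given in CPM, a gene's count relative to the total of its library after TMM scaling. A list of 8 plasma cell markers (Sdc1, Prdm1, Xbp1, Irf4, Jchain, Mzb1, Tnfrsf17 and Slamf7) summed to 19600 to 22000 CPM in IgE PC, to 11000 to 16300 in IgG1 PC, to 1720 to 1760 at day 6, to 1190 to 1370 in IgE iGC and to 873 to 919 in IgG1 iGC. Myeloid and T cell markers summed to at most 8.58 and 2.24 CPM in any library. IgG1 PC replicate 1 stood apart from its group, with an immunoglobulin share of 21.7% against 15.3 and 16.1%, and a plasma cell marker sum of 16300 against 11800 and 11000 CPM. In CPM it had the highest of the 3 values for 8 of the 10 genes, and the share over all genes is not given here. In the length-corrected TPM of the deposited table it was highest for Sqstm1, Map1lc3b and Wipi1. There it was lowest for Atg5, Ulk1, Tfeb, Becn1 and Bnip3. Its effect is given wherever it changes a call.

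Promoter windows from RefSeq (GRCm38.p6) matched 9 of the 10 genes, all but Becn1. The 250 bases before the annotated start are shown for Atg5 and Sqstm1, the pair with the highest correlation across the libraries, and for Bnip3, which stood highest at day 6. Capitals mark CACGTG, the E-box that TFEB and related factors can bind. Atg5 lies at chr10:44268089-44268338 on the plus strand, Bnip3 at chr7:138909507-138909756 on the minus strand and Sqstm1 at chr11:50210821-50211070 on the minus strand.
Atg5: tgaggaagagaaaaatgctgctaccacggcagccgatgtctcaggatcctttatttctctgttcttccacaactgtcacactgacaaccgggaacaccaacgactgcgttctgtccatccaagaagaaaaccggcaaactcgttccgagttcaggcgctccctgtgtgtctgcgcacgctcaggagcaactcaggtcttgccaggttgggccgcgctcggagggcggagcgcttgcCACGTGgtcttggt
Bnip3: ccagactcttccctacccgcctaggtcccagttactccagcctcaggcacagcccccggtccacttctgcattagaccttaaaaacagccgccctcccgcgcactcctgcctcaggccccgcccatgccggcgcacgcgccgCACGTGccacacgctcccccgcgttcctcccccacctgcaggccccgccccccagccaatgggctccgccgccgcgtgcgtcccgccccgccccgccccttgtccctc
Sqstm1: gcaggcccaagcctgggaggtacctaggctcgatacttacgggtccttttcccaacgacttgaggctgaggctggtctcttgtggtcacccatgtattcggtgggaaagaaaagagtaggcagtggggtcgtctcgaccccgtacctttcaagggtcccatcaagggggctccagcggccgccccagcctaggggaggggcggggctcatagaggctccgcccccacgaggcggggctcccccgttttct
CACGTG, searched on both strands, was present in the windows of 3 of the 9 genes. It lay at position -14 from the start in Atg5, at -108 in Bnip3 and at -132 in Atg7. The Atg7 window, at chr6:114670846-114671145, lies inside the gene as annotated, which begins at 114643097, so its start is an internal one. These 9 genes had 11 windows, as Tfeb had several. Counted per window and not per gene, CACGTG was present in 7.15% of all 32851 windows of the same length. The windows run from 250 bases before to 50 after each start. The longer form GTCACGTG was present in Atg7 alone and in 2.25% of all windows, and TGACNNNGC, the core of the antioxidant response element, in Map1lc3b alone and in 12.4%. ACGTG, the core of the hypoxia response element, lies inside each of the 3 E-boxes, was found nowhere else in these windows and was present in 19.6% of all. No window held TGATGNAA (3.97% of all) or GTAAACA (3.65% of all). These matches describe letters and not binding.

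Ulk1, the kinase that starts autophagy (chr5:110784488-110810097, minus strand, GRCm38 as are all gene positions here), was measured at 34.7, 33.3 and 36.7 CPM at day 6, at 47.2, 48.2 and 45.8 in IgE iGC, at 43.0, 38.4 and 37.8 in IgG1 iGC, at 77.4, 77.0 and 77.1 in IgE PC and at 64.3, 52.6 and 55.4 in IgG1 PC. No neighbouring pair of groups overlapped: the order was IgE PC, IgG1 PC, IgE iGC, IgG1 iGC and day 6. Becn1, the core of the lipid kinase complex (chr11:101285952-101302286, minus strand), was nearly flat, at 109, 110 and 108 CPM at day 6, 136, 136 and 137 in IgE iGC, 132, 134 and 139 in IgG1 iGC, 138, 140 and 145 in IgE PC and 148, 134 and 132 in IgG1 PC. The day 6 libraries lay below all others, and the sorted groups overlapped their neighbours in the order of means. The highest group mean of Becn1 was 1.29 times the lowest.

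Wipi1, which binds the lipid mark (chr11:109573331-109611967, minus strand), had the widest range of the 10 genes, with a highest group mean 12.7 times the lowest. Its levels were 5.45, 5.92 and 6.01 CPM at day 6, 1.55, 1.72 and 1.39 in IgE iGC, 1.2, 1.93 and 1.83 in IgG1 iGC, 20.2, 19.5 and 19.5 in IgE PC and 19.4, 13.7 and 14.7 in IgG1 PC. Both PC groups lay above day 6 and both iGC groups below it, and the iGC groups overlapped each other. IgG1 PC replicate 1 lay just under the IgE PC libraries.

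Atg5, a subunit of the enzyme that attaches ATG8 proteins to lipid (chr10:44268358-44364291, plus strand), was at 34.0, 33.7 and 32.1 CPM at day 6, 23.1, 22.8 and 21.5 in IgE iGC, 22.7, 22.1 and 24.7 in IgG1 iGC, 50.2, 47.4 and 52.3 in IgE PC and 30.9, 30.7 and 28.3 in IgG1 PC. IgE PC stood clear at the top, and the iGC groups overlapped at the bottom. Atg7, the activating enzyme of the same system (chr6:114643097-114860614, plus strand), moved little, at 21.8, 21.5 and 18.5 CPM at day 6, 17.7, 17.1 and 15.9 in IgE iGC, 18.5, 19.7 and 17.4 in IgG1 iGC, 15, 17 and 16.8 in IgE PC and 18.3, 17.8 and 20.8 in IgG1 PC. Each group of Atg7 overlapped its neighbour in the order of means, and the highest mean was 1.27 times the lowest.

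Map1lc3b encodes LC3B, the ATG8 protein most used as a mark of autophagosomes (chr8:121590361-121598760, plus strand). It was at 89.5, 83.9 and 85.4 CPM at day 6, 95.6, 97.7 and 87.6 in IgE iGC, 87.5, 91.0 and 89.7 in IgG1 iGC, 245, 241 and 254 in IgE PC and 236, 168 and 170 in IgG1 PC. The 3 non-PC groups overlapped, and every PC library lay above them. Gabarapl1, another ATG8 gene (chr6:129533160-129542346, plus strand), had a different order, at 35.6, 38.1 and 38.4 CPM at day 6, 15.9, 15.2 and 14.8 in IgE iGC, 14.5, 15.8 and 15.6 in IgG1 iGC, 27.3, 25.1 and 20.8 in IgE PC and 28.1, 21.3 and 23.4 in IgG1 PC. Day 6 was highest, the 2 PC groups overlapped in the middle and the 2 iGC groups overlapped at the bottom. Map1lc3b counts were fractional in all 15 libraries and Bnip3 counts in 9, so reads of these genes were shared with other loci and their levels are less certain than those of the other 8 genes, whose counts were whole throughout.

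Sqstm1 encodes p62, which binds ubiquitinated cargo and is itself degraded by autophagy (chr11:50199366-50210827, minus strand). It was measured at 643, 668 and 668 CPM at day 6, 202, 196 and 178 in IgE iGC, 176, 180 and 181 in IgG1 iGC, 1010, 997 and 1040 in IgE PC and 522, 361 and 409 in IgG1 PC. IgE PC, day 6 and IgG1 PC followed each other without overlap, and the iGC groups overlapped at the bottom. Bnip3, a receptor for mitochondria that is known as a target of hypoxia (chr7:138890836-138909519, minus strand), was at 24.0, 22.6 and 23.0 CPM at day 6, 5.73, 5.94 and 5.89 in IgE iGC, 6.30, 5.80 and 6.06 in IgG1 iGC, 7.46, 5.84 and 7.46 in IgE PC and 6.44, 5.62 and 5.33 in IgG1 PC. Day 6 stood alone, 4.0 times the lowest group mean, and the 4 sorted groups overlapped.

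Tfeb, the transcription factor (chr17:47737030-47792419, plus strand), ran the other way, at 95.5, 85.9 and 86.1 CPM at day 6, 92.5, 93.3 and 79.2 in IgE iGC, 87.0, 86.6 and 90.0 in IgG1 iGC, 37.7, 39.1 and 36.5 in IgE PC and 55.1, 55.2 and 61.9 in IgG1 PC. The non-PC groups overlapped at the top, IgG1 PC lay below them and IgE PC lowest. On the length-corrected TPM scale of the deposited table, on which genes can be compared with each other, Sqstm1 had the highest mean of the 10 in every group, from 163 to 646 TPM. Day 6 levels ran from 646 ± 22.8 TPM (SD, n = 3) for Sqstm1 through 123 ± 1.78 for Map1lc3b and 116 ± 3.35 for Becn1 down to 4.33 ± 0.226 for Wipi1. The TPM scale changed the order of groups for some genes: the highest mean of Ulk1 was then in IgE iGC (17.8 against 17.3 TPM in IgE PC) and that of Atg5 at day 6 (25.9 against 20.8 TPM in IgE PC).

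**Figure D1:**
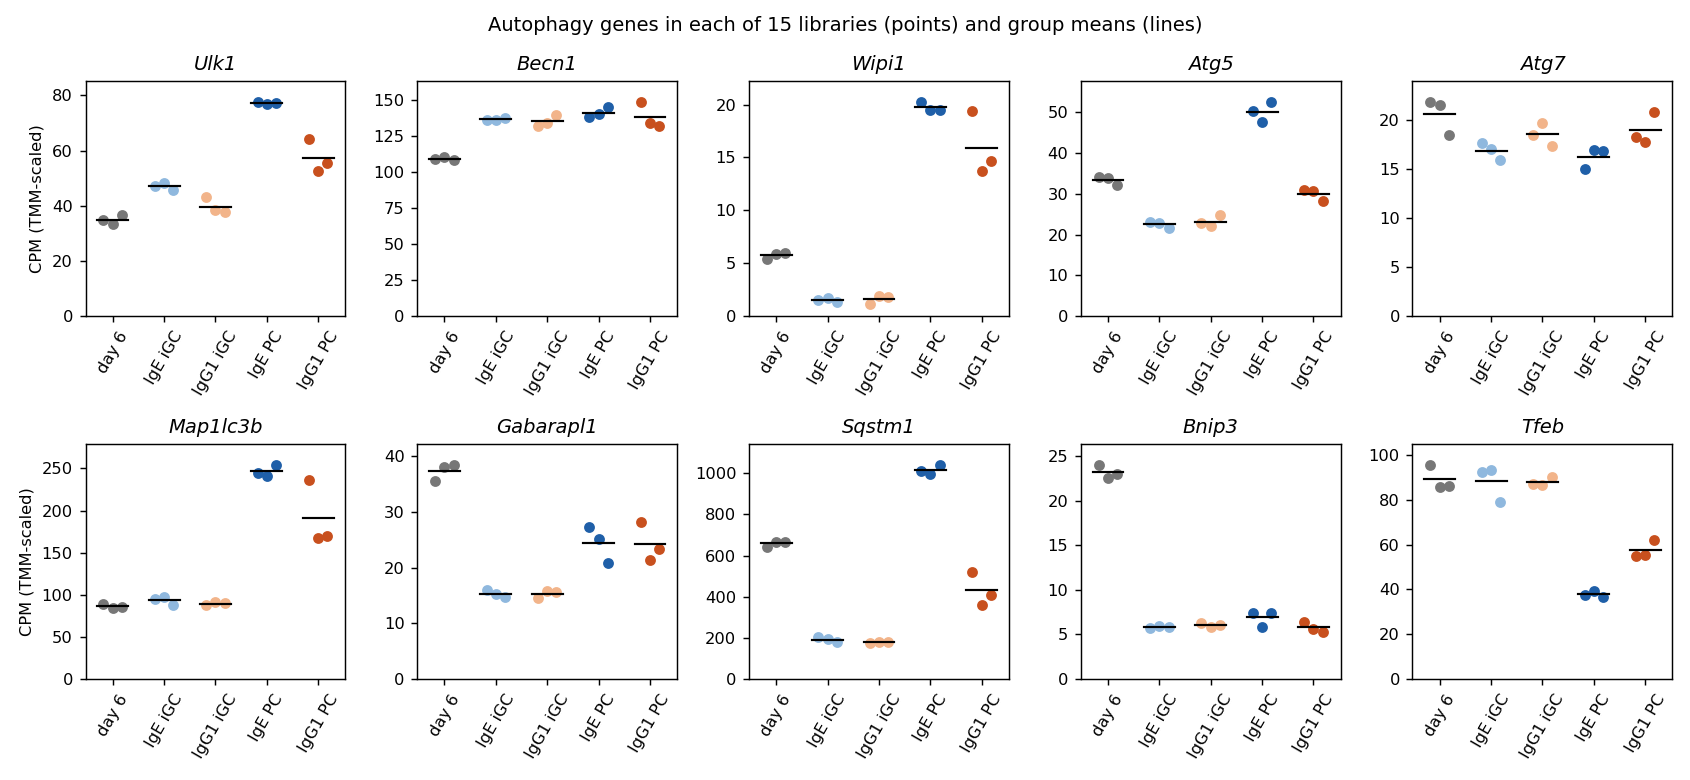
CPM of each of the 10 genes in each of the 15 libraries (points, on a linear axis from 0) with the group means (lines). On this TMM-scaled axis Ulk1, Wipi1, Atg5, Map1lc3b and Sqstm1 are highest in IgE PC, Bnip3 and Gabarapl1 at day 6, and Tfeb is lowest in IgE PC, while in TPM the highest means are at day 6 for Sqstm1 (646) and Atg5 (25.9) and in IgE iGC for Ulk1 (17.8).

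The step from iGC to PC was compared within each isotype. In IgE cells Wipi1 rose 12.5-fold, Sqstm1 5.29-fold, Map1lc3b 2.63-fold and Atg5 2.22-fold, and Tfeb fell 2.34-fold. In IgG1 cells the same 4 genes rose by 9.64-fold, 2.41-fold, 2.13-fold and 1.29-fold, and Tfeb fell 1.53-fold. Of the 10 genes, 8 were called in IgE cells (7 higher, 1 lower), where 64.1% of all 15692 genes tested were called, and 7 in IgG1 cells (6 higher, 1 lower), where 59.1% were. With total-count scaling the counts were 5 higher and 4 lower in IgE cells and 5 and 3 in IgG1 cells, and in the deposited TPM 4 and 4, and 3 and 5. In these bulk libraries fewer cells of a type and less RNA per cell cannot be told apart. The test was edgeR's quasi-likelihood test with Benjamini-Hochberg adjustment over all genes tested, called at an adjusted p under 0.05.

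The log2 change of Wipi1 was 3.65 (SE 0.17, adjusted p = 2.13e-11) in IgE and 3.27 (SE 0.16, adjusted p = 1.47e-10) in IgG1 cells. For Sqstm1 the changes were 2.4 (SE 0.10, adjusted p = 1.05e-11) and 1.27 (SE 0.10, adjusted p = 3.59e-08). Each of these PC libraries lay above each iGC library of its isotype. Ulk1 rose by 0.71 and 0.53 on the log2 scale (SE 0.07 in both) and Gabarapl1 by 0.67 and 0.66 (SE 0.10 in both). Tfeb fell by 1.23 and by 0.61 (SE 0.07 in both), with every PC library below every iGC library. Becn1 (0.05 and 0.03) and Atg7 (-0.06 and 0.04) did not pass the test in either isotype with this scaling. Bnip3 was called in IgE cells (-0.07 in IgG1 cells), at 0.24 (SE 0.10, adjusted p = 0.0492), a call that was lost or changed sign in 10 of 16 alternative analyses. These included leaving out any 1 IgE iGC library (0.23 to 0.25) or IgE PC replicate 1 (0.18) or 3 (0.20).

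These directions depended in part on the scaling. PC libraries also carried the larger immunoglobulin share given above, whose part in this was not tested. With libraries scaled by total count the median of all genes moved from -0.08 to -0.55 in the IgE step and from 0.01 to -0.22 in the IgG1 step (log2), and in the deposited TPM to -0.49 and -0.42. The share of called genes that were higher in PC moved from 47.6% to 23.3% and 16.1% in the IgE step and from 50.9% to 32% and 15.1% in the IgG1 step. Wipi1, Sqstm1 and Map1lc3b stayed higher and Tfeb lower in PC in both steps under every scaling, whereas 6 of the 10 genes turned negative in at least 1 step. With total-count scaling Becn1 passed as lower in PC in both steps (-0.42, adjusted p = 4.54e-07, and -0.20, adjusted p = 0.000851), Bnip3 in both (-0.23 and -0.30) and Atg7 in the IgE step (-0.53), and Gabarapl1 lost its call there (0.20, adjusted p = 0.0856), as did Atg5 in the IgG1 step (0.14, adjusted p = 0.0564). In the deposited TPM Becn1 (-0.63, adjusted p = 4.76e-07, and -0.45, adjusted p = 2.04e-05), Bnip3 (-0.50 and -0.42) and Atg7 (-0.80 and -0.55) passed as lower in both steps and Atg5 in the IgG1 step (-0.22). Ulk1 (-0.04 and -0.08) and Gabarapl1 (-0.01 and -0.07) also changed sign there and did not pass. Relative to the median of all genes in that same scale, Ulk1 stood at 0.45 and 0.33, Gabarapl1 at 0.48 and 0.35, Atg5 at 0.89 and 0.19, Becn1 at -0.14 and -0.03 and Atg7 at -0.31 and -0.14.

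**Figure D2:**
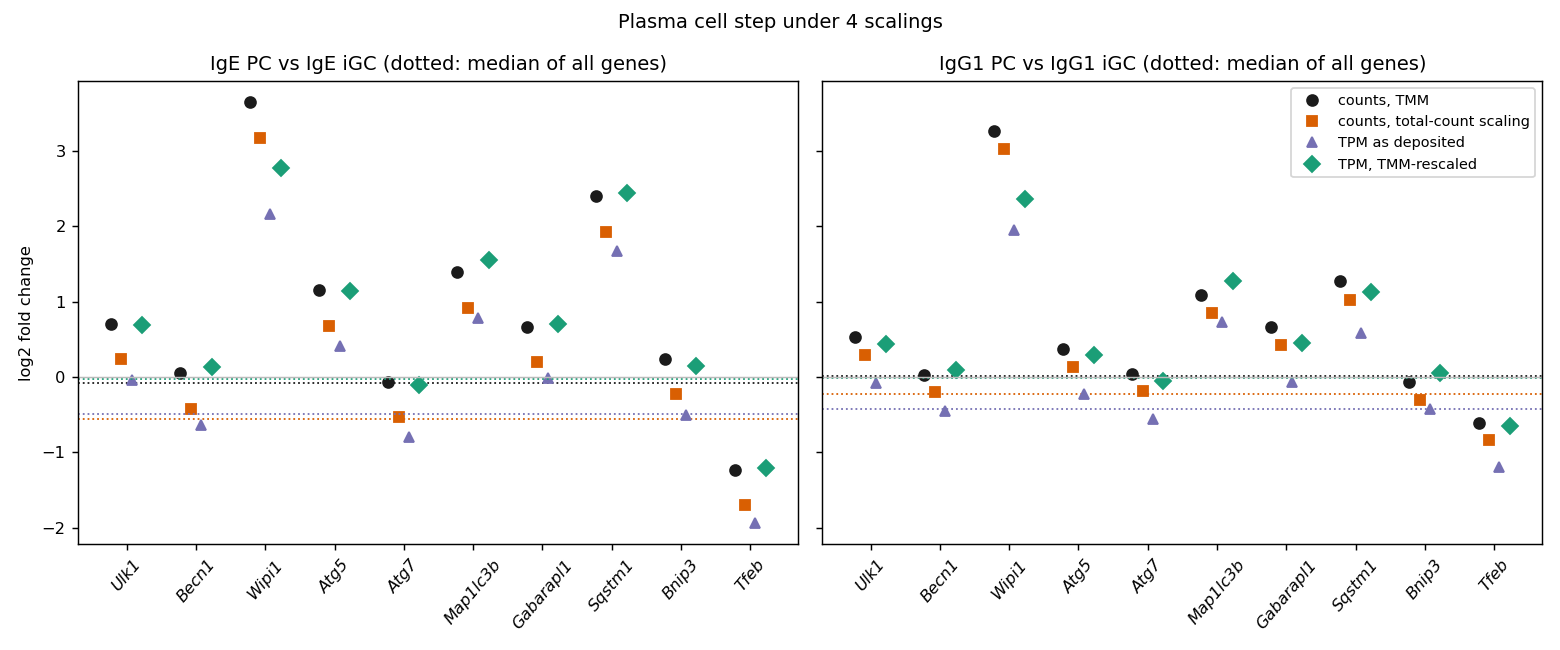
Log2 change of the 10 genes (x axis) from iGC to PC in IgE cells (left) and IgG1 cells (right) under 4 scalings: TMM, total count, TPM as deposited and TPM rescaled by TMM, with the median of all genes tested in each as a dotted line. In the IgE step the median lies at -0.08, -0.55, -0.49 and -0.02, and Ulk1 and Gabarapl1 lie below 0 in the deposited TPM alone.

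**Figure D3:**
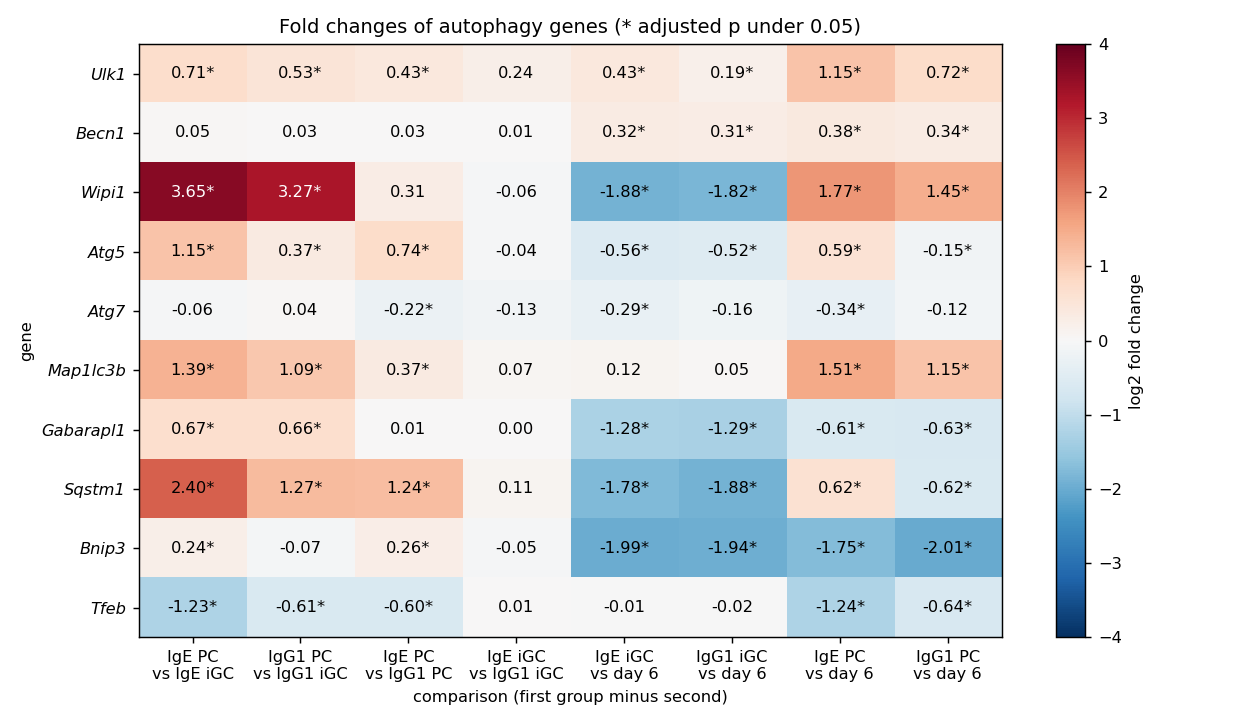
Heat map of the log2 fold change (colour and number) of each gene (rows) in each of 8 comparisons (columns), TMM-scaled, with an asterisk where the adjusted p is under 0.05. Wipi1 shows 3.65 and 3.27 in the steps from iGC to PC, and the column of the iGC comparison holds no asterisk.

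IgE PC were then compared with IgG1 PC. Sqstm1 was 2.36-fold higher in IgE PC, Atg5 1.67-fold, Ulk1 1.35-fold and Map1lc3b 1.29-fold, and Tfeb was 1.52-fold lower. The log2 differences were 1.24 (SE 0.10, 95% interval 1.02 to 1.46, adjusted p = 5.57e-08) for Sqstm1, 0.74 (SE 0.06, adjusted p = 9.53e-08) for Atg5 and -0.60 (SE 0.07, adjusted p = 3.43e-06) for Tfeb, and the libraries of the 2 groups did not overlap for these genes. Ulk1 differed by 0.43 (SE 0.07, adjusted p = 9.63e-05) and Map1lc3b by 0.37 (SE 0.10, adjusted p = 0.0049). Of the 10 genes, 7 were called (5 higher and 2 lower in IgE PC), against 58.1% of all genes tested, of which 47.2% were higher (23.8% with total-count scaling, 31.7% in the deposited TPM). With total-count scaling and in the deposited TPM 3 of the 10 were higher (Sqstm1, Atg5 and Ulk1) and 3 lower (Tfeb, Atg7 and Becn1). Gabarapl1 (0.01, 95% interval -0.22 to 0.24) and Becn1 (0.03, -0.08 to 0.15) did not pass the test with TMM scaling. Becn1 was called lower in IgE PC with total-count scaling (-0.21, adjusted p = 0.000614) and in the deposited TPM (-0.21, adjusted p = 0.0164).

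Bnip3 (0.26, adjusted p = 0.0354) and Atg7 (-0.22, adjusted p = 0.0381) were called in the same comparison, but the calls were lost or reversed in 10 and 9 of 16 alternative analyses. Bnip3 lost its call without IgE PC replicate 1 (0.21) or 3 (0.22) or IgG1 PC replicate 2 (0.25) or 3 (0.21), and Atg7 without IgE PC replicate 1 (-0.16) or 3 (-0.23) or IgG1 PC replicate 3 (-0.15). Wipi1 (0.31, SE 0.13, adjusted p = 0.0552) missed the threshold. It passed with all libraries by DESeq2 (0.36, adjusted p = 0.0224), with RLE scaling (0.36, adjusted p = 0.0302), with TMM factors taken without immunoglobulin genes (0.37, adjusted p = 0.0268) and in TPM rescaled by TMM (0.36, adjusted p = 0.015), and also without IgG1 PC replicate 1 (0.47, adjusted p = 0.00261), where 8 genes were called. Over all genes, 8223 to 9356 were called with 1 PC library left out, against 9119 with all. Wipi1 stood at 0.07 (adjusted p = 0.656) with total-count scaling and at 0.15 (adjusted p = 0.249) in the deposited TPM. Map1lc3b lost its call under total-count scaling (0.13, adjusted p = 0.178) and in the deposited TPM (0.10, adjusted p = 0.261). The plasma cell marker sums given above did not overlap between the 2 groups. In the same libraries 7 B cell markers (Pax5, Ms4a1, Cd22, Cd79b, Cr2, Fcer2a and Bach2) summed to 2630 to 2840 CPM in IgE PC and 2710, 3440 and 3210 in IgG1 PC replicates 1, 2 and 3, so that replicate 1 alone fell within the IgE PC range. Of these 7, 3 were called lower in IgE PC and 0 higher, where 58.1% of all genes tested were called. Their median was -0.22 against -0.05 for all genes. None of the 15 plasma and B cell markers was at 0 in either group. Of 13 fibroblast markers, which the feeder could contribute, the sum was 26.3 to 41.7 CPM in IgE PC, with Postn and Lum at 0, and 82 to 215 in IgG1 PC. The part of these cell types in the differences was not tested.

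Whether the step from iGC to PC differed between the isotypes was tested as the difference of the 2 changes. Sqstm1 rose more in IgE cells, by 1.13 (log2, SE 0.14, adjusted p = 1.37e-05), and so did Atg5, by 0.78 (SE 0.09, adjusted p = 6.67e-06). Tfeb fell more in IgE cells, with a difference of -0.62 (SE 0.10, adjusted p = 0.000167). These 3 of the 10 genes were called, against 42.9% of all genes tested (46.1% of those positive, 21.6% with total-count scaling and 29.6% in the deposited TPM), and kept their sign and call in all 22 alternative analyses. Without IgG1 PC replicate 1 there were 7 calls, 6 positive and 1 negative, adding Map1lc3b (0.48), Wipi1 (0.54), Bnip3 (0.39) and Ulk1 (0.27). In that fit 47.9% of the called genes among all genes were positive. Over all genes, 5882 to 7418 were called with 1 library of the sorted groups left out, against 6733 with all. Bnip3 was also called without IgE PC replicate 2 (0.42), and Wipi1 without IgG1 iGC replicate 1 (0.57). With all libraries Map1lc3b stood at 0.30 (SE 0.14, adjusted p = 0.0983) and was called by DESeq2 (0.34, adjusted p = 0.0492). Bnip3 was called with TMM factors taken without immunoglobulin genes (0.37, adjusted p = 0.0474), Ulk1 in TPM rescaled by TMM (0.26, adjusted p = 0.0383) and Becn1, as negative, with total-count scaling (-0.21, adjusted p = 0.0107).

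**Figure D4:**
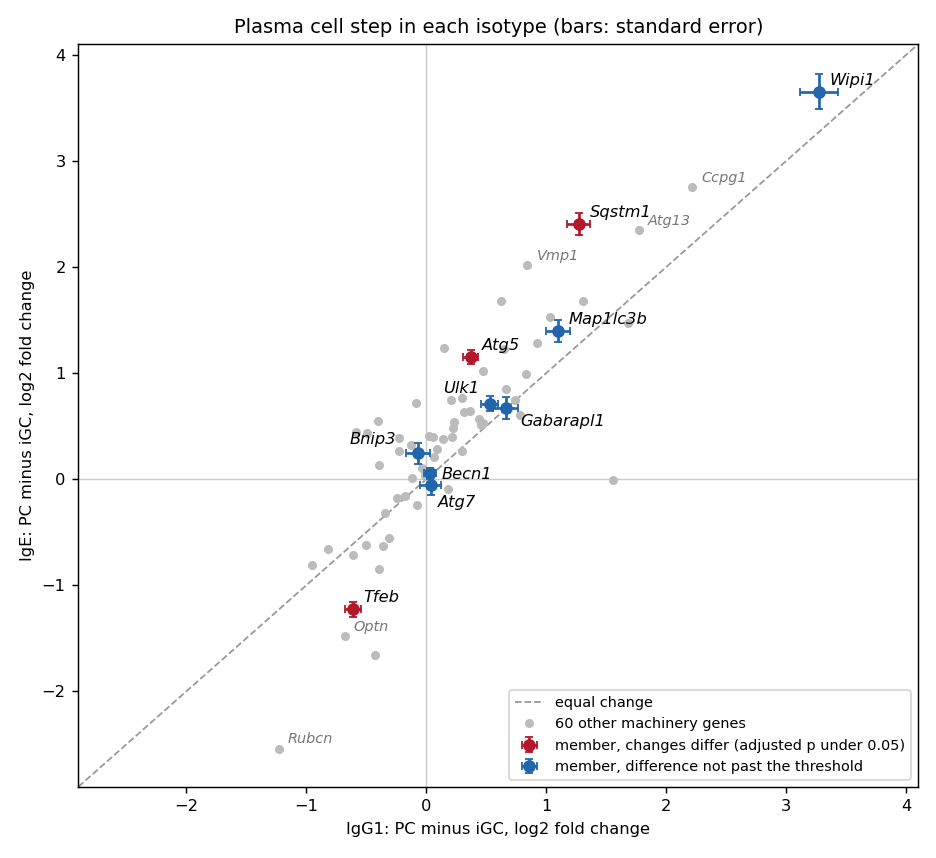
Log2 change from iGC to PC in IgG1 cells (x axis) against that in IgE cells (y axis), with the 10 genes labelled, 60 other machinery genes as grey points, standard errors as bars, the line of equal change dashed, and genes whose changes differ at an adjusted p under 0.05 in red. Sqstm1 (1.27 and 2.4) and Atg5 (0.37 and 1.15) lie above the line and Tfeb (-0.61 and -1.23) below it.

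Between IgE iGC and IgG1 iGC none of the 10 genes was called by edgeR, where 3.87% of all genes tested were called. At an unadjusted p under 0.05, for which the share over all genes is not given here, 1 of the 10 passed. That gene was Ulk1, higher in each IgE iGC library than in each IgG1 iGC library, by 0.24 (log2, SE 0.07, 95% interval 0.08 to 0.41, adjusted p = 0.0789). DESeq2 called it (0.25, adjusted p = 0.0226), as did edgeR with total-count scaling (0.23, adjusted p = 0.0469) and edgeR on the 6 iGC libraries alone (0.24, adjusted p = 0.0222). Plasma cell markers moved with it: the sums given above did not overlap between the iGC groups, and 3 of the 8 were higher in IgE iGC and 0 lower, with a median of 0.49 against 0.01 for all genes. Their part in the Ulk1 difference was not tested. For Sqstm1 the difference was 0.11 (95% interval -0.11 to 0.32) and for Atg5 -0.04 (-0.19 to 0.10). Wipi1, at 1.2 to 1.93 CPM, had the widest interval, -0.48 to 0.36.

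Each sorted group was also set against day 6, the shared reference, so these 4 comparisons are not independent. In both iGC groups Bnip3, Sqstm1, Wipi1 and Gabarapl1 were far below day 6. Bnip3 was 3.97-fold lower in IgE iGC and 3.84-fold lower in IgG1 iGC, Wipi1 3.68-fold and 3.52-fold, Sqstm1 3.43-fold and 3.69-fold, and Gabarapl1 2.44-fold in both. Atg5 was lower by 1.48-fold and 1.43-fold. Becn1 was 1.25-fold and 1.24-fold higher, and Ulk1 1.35-fold and 1.14-fold higher. Of the 10 genes, 8 were called in IgE iGC (2 higher, 6 lower, 69.1% of all genes) and 7 in IgG1 iGC (2 higher, 5 lower, 68.4% of all genes). In the deposited TPM 1 was higher and 7 lower in IgE iGC and 0 higher and 6 lower in IgG1 iGC, and Becn1 passed in neither. The Ulk1 call in IgG1 iGC (0.19, adjusted p = 0.0298) was lost in 6 of 16 alternatives, among them without day 6 replicate 1 (0.19) or 2 (0.16) or IgG1 iGC replicate 1 (0.14). Atg7, at -0.16 in IgG1 iGC, was called without day 6 replicate 3 (-0.23).

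The 2 PC groups differed from day 6 in opposite directions for Sqstm1, which was higher in IgE PC (0.62, SE 0.10, adjusted p = 2.65e-05) and lower in IgG1 PC (-0.62, SE 0.10, adjusted p = 3.75e-05). In IgE PC the higher value became 0.09 with total-count scaling and -0.24 in the deposited TPM. Wipi1 (1.77 and 1.45), Map1lc3b (1.51 and 1.15) and Ulk1 (1.15 and 0.72) were higher in both PC groups, and Bnip3 (-1.75 and -2.01), Tfeb (-1.24 and -0.64) and Gabarapl1 (-0.61 and -0.63) lower in both. All 10 genes were called in IgE PC (6 higher, 4 lower, 76.4% of all genes) and 9 in IgG1 PC (4 higher, 5 lower, 71.9% of all genes). Total-count scaling gave 3 higher and 5 lower in IgE PC and 3 and 6 in IgG1 PC, and the deposited TPM 3 and 7, and 2 and 7. The share of called genes that were higher went from 48.3% to 26.8% with total-count scaling and 16.9% in the deposited TPM for IgE PC, and from 50% to 35% and 17.3% for IgG1 PC. Atg5 was higher in IgE PC (0.59, SE 0.06, adjusted p = 3.19e-07), at 0.05 with total-count scaling and -0.30 in the deposited TPM. In IgG1 PC it was lower (-0.15, adjusted p = 0.0374), a call lost in 7 of 16 alternatives, among them without day 6 replicate 1 (-0.14) or 2 (-0.14) or IgG1 PC replicate 2 (-0.16) or 3 (-0.10).

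Day 6 cells were unsorted and came straight from the feeder. The 13 fibroblast markers (Col1a1, Col1a2, Col3a1, Col5a1, Col6a1, Sparc, Fn1, Postn, Thy1, Pdgfrb, Fbn1, Dcn and Lum) summed to 265 to 405 CPM at day 6, 43.6 to 86 in the iGC groups, 26.3 to 41.7 in IgE PC and 82 to 215 in IgG1 PC, with Postn at 0 in every group but IgG1 PC and Lum at 0 in both IgE groups. Col1a1 alone was at 88.9 to 147 CPM at day 6. Their part in the day 6 levels of Bnip3, Gabarapl1 and Sqstm1 was not tested. Genes of the NRF2 pathway, which answers oxidative stress, stood high at day 6 too: Hmox1, which degrades haem, was at 299 ± 27.6 CPM (SD, n = 3) at day 6 and at 5.71 ± 0.499 in IgE iGC. Of 8 NRF2 pathway genes, 6 were lower and 1 higher in IgE iGC than at day 6, with a median of -2.79 against -0.04 for all genes tested. The counts were the same in IgG1 iGC, with a median of -2.82. Of all genes tested, 69.1% were called in IgE iGC and 68.4% in IgG1 iGC against day 6.

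The remaining autophagy machinery was followed in 60 further genes from 8 lists, all of which were tested. From iGC to PC, 37 were higher and 12 lower in IgE cells and 27 higher and 15 lower in IgG1 cells, with medians of 0.40 and 0.08 against -0.08 and 0.01 for all genes. These are 49 and 42 called of 60, where 64.1% and 59.1% of all genes were called. The balance rests on the scaling: total-count scaling gave 20 higher and 24 lower in IgE cells and 19 and 30 in IgG1 cells, and the deposited TPM 12 and 34, and 9 and 38. Of the genes for the membrane source and lipid transfer of the phagophore, 9 of 9 were higher in IgE cells and 8 of 9 in IgG1 cells (7 of 9 and 7 of 9 with total-count scaling, 3 of 9 and 4 of 9 in the deposited TPM). Vmp1, a scramblase of the endoplasmic reticulum, rose by 2.02 and 0.84, and Tmem41b, another scramblase, by 1.68 in IgE cells. Atg13, a subunit of the ULK1 complex, rose by 2.34 (SE 0.08, adjusted p = 5.95e-13) and 1.77 (SE 0.07, adjusted p = 2.47e-11), from means of 36.3 and 32.3 to 184 and 110 CPM. Rubcn, an inhibitor of the Beclin 1 complex, fell by 2.54 and 1.23.

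Among cargo receptors, Ccpg1, a receptor for turnover of the endoplasmic reticulum, rose by 2.75 and 2.21, and Nbr1, which like p62 binds ubiquitin, by 1.53 and 1.03. Optn, a receptor of mitochondria and bacteria, fell by 1.48 and 0.68, and Retreg1, a receptor of endoplasmic reticulum sheets, by 0.66 and 0.82. Of the 13 fusion genes, 5 were higher and 8 lower in IgE cells and 4 and 7 in IgG1 cells. With total-count scaling the counts were 0 and 10, and 1 and 9. Over all genes tested 64.1% and 59.1% were called with TMM scaling, of which 47.6% and 50.9% were higher. Snap29, a fusion SNARE, fell by 0.81 and 0.95. The 3 other ATG8 genes were higher in PC of both isotypes, Map1lc3a by 1.47 and 1.68 and Gabarapl2 by 0.85 and 0.66. In the deposited TPM 1 of the 3 passed as higher in IgE cells, and 1 as higher and 1 as lower in IgG1 cells.

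The share of each ATG8 gene in the summed TPM of the family's 5 genes shifted with the stage. Map1lc3b made up 19.4% ± 0.241 (SD, n = 3) at day 6 and nearly the same in iGC, 19.3% ± 1.15 for IgE and 18.3% ± 0.751 for IgG1, against 29.6% ± 0.659 in IgE PC and 29.8% ± 2.48 in IgG1 PC. Gabarap was the most abundant member in every group, at 49.8% ± 0.555 at day 6, 63.3% ± 0.846 and 65.8% ± 1.77 in the iGC groups and 52.9% ± 0.36 and 52.6% ± 2.27 in the PC groups. Map1lc3a was at 13% ± 0.51 at day 6 and at 2.33% or less elsewhere, and Gabarapl1 at 6.30% ± 0.225 and 2.15 to 2.69%. The summed level of the family ran from 566 ± 7.46 TPM in IgE iGC to 639 ± 29.3 TPM in IgE PC.

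Between IgE PC and IgG1 PC, 33 of the 60 machinery genes were higher and 9 lower in IgE PC, with a median of 0.20 against -0.05 for all genes, of which 58.1% were called. Without IgG1 PC replicate 1 the counts were 38 and 9, where 48.7% of the called genes among all genes were higher. Total-count scaling gave 20 and 19, and the deposited TPM 20 and 11. All 6 receptors for the endoplasmic reticulum were higher in IgE PC, with a median of 0.54, among them Ccpg1 (0.82, SE 0.08, adjusted p = 3.63e-07) and Rtn3 (0.63, SE 0.07, adjusted p = 1.45e-06), and 3 of 6 and 4 of 6 were in the other 2 scalings. Rb1cc1, the scaffold of the ULK1 complex, was higher by 1.13 (SE 0.10, adjusted p = 2.80e-07) at 121 ± 9.70 against 55.1 ± 11.0 CPM (SD, n = 3), and Ulk2, the other ULK kinase, by 0.95. Vmp1 (1.06), Tmem41b (1.05) and the mitochondrial receptor Bnip3l (0.88) were higher, and Rubcn (-1.45), Optn (-0.48) and Plekhm1 (-0.39), an adaptor of fusion, lower.

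Between the iGC groups 1 of the 60 machinery genes was called by edgeR, the mitochondrial receptor Fundc1, lower in IgE iGC by 0.30 on the log2 scale (-0.30, SE 0.08, adjusted p = 0.0452). DESeq2 called 3 higher and 1 lower. The Fundc1 call was lost in 10 of 16 alternatives, among them without any 1 of the 6 iGC libraries (-0.34 to -0.26). Its step from iGC to PC differed between the isotypes by 0.93 (SE 0.11, adjusted p = 1.34e-05), with means of 29.8 ± 1.57 and 40.4 ± 3.76 CPM in IgE iGC and IgE PC and of 36.8 ± 1.54 and 26.2 ± 1.5 CPM in IgG1 iGC and IgG1 PC (SD, n = 3).

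**Figure D5:**
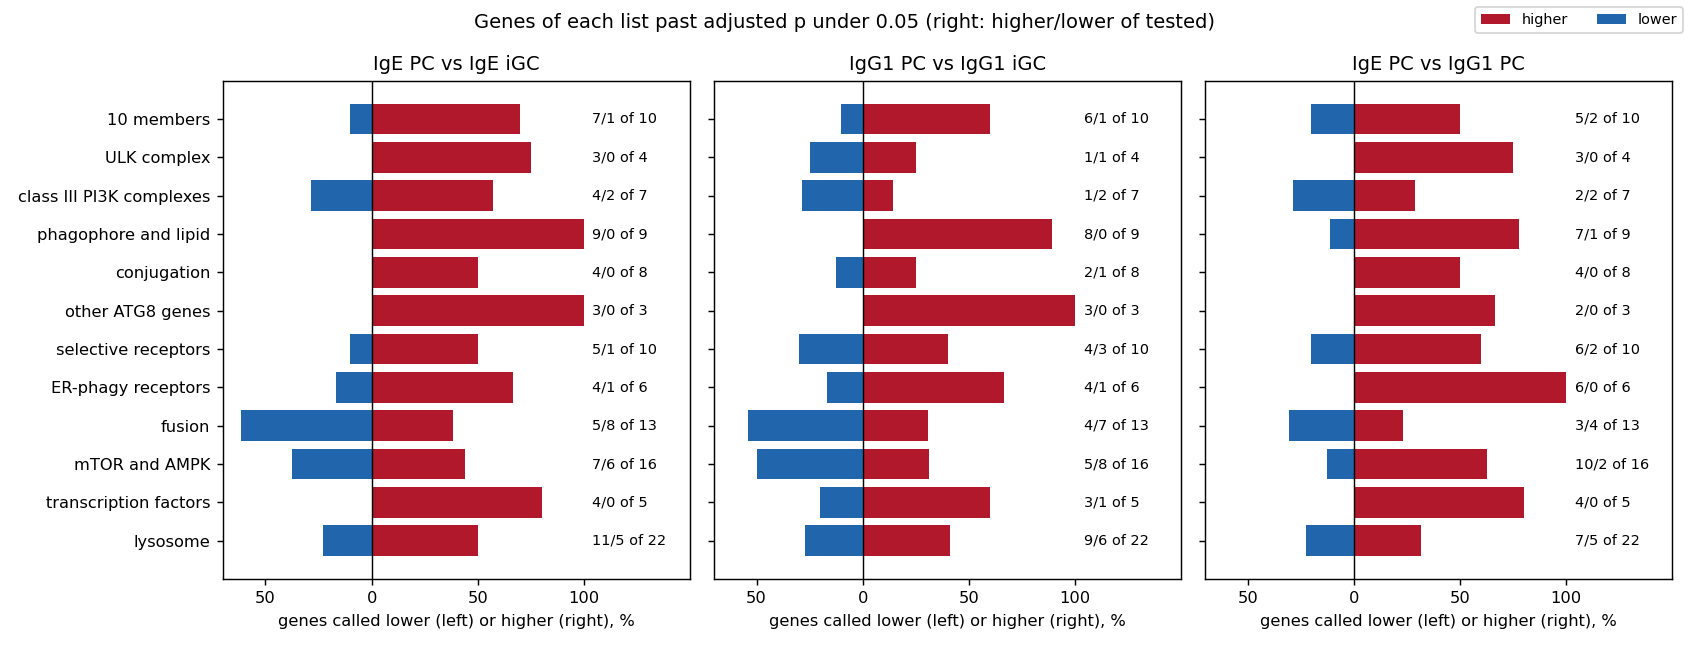
Percent of the genes of each list called higher (bars to the right) or lower (bars to the left) at an adjusted p under 0.05 in 3 comparisons, with the counts printed beside them. All 6 receptors for the endoplasmic reticulum are higher in IgE PC than in IgG1 PC, where 58.1% of all genes are called. Of 13 fusion genes, 8 are lower in IgE PC than in IgE iGC, where 64.1% of all genes are called. Under total-count scaling 3 of the 6 receptors pass as higher and 10 of the 13 fusion genes as lower.

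Regulators upstream of autophagy were read from lists that were chosen with earlier results of these data known. They are given for the comparison of IgE PC and IgG1 PC, in which 58.1% of all genes were called. Of 16 genes of the mTOR and AMPK pathways, 10 were higher and 2 lower in IgE PC than in IgG1 PC (4 and 5 with total-count scaling, 5 and 4 in the deposited TPM). The list holds Mtor as well as inhibitors of mTORC1, so the count gives no direction for autophagy. Sesn2, a stress-induced inhibitor of mTORC1, was higher by 1.79 (SE 0.08, adjusted p = 2.85e-10), at 285 ± 20.8 against 82.7 ± 10.2 CPM (SD, n = 3), while its relative Sesn3 was lower (-0.96, SE 0.16, adjusted p = 0.000132). The list of other transcription factors of autophagy and lysosome genes held Tfe3, Mitf, Foxo1, Foxo3 and Zkscan3, without separating activators from repressors. Of these 5, 4 were higher in IgE PC and 0 lower (3 and 1 with total-count scaling, 3 and 0 in the deposited TPM). Foxo3 was among the higher ones (0.76, SE 0.04, adjusted p = 3.02e-09). All 7 genes of the integrated stress response, which signals through ATF4, were higher, with a median of 1.47 and Trib3 at 2.95 (SE 0.16, adjusted p = 1.94e-09), and 6 of 7 were in each of the other 2 scalings.

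Of 22 lysosome genes, many of them known targets of TFEB, 7 were higher and 5 lower in IgE PC than in IgG1 PC, a share near the 58.1% called over all genes, with a median of 0.06 against -0.05. The counts were 11 and 5 without IgG1 PC replicate 1, where 48.7% of the called genes among all genes were higher. Total-count scaling gave 3 and 11 with a median of -0.19, and the deposited TPM 5 and 9 with a median of -0.16. Lamp2, a membrane protein of the lysosome, was higher by 0.79 (SE 0.08, adjusted p = 7.55e-07). In the step from iGC to PC, 11 rose and 5 fell in IgE cells and 9 and 6 in IgG1 cells, where 64.1% and 59.1% of all genes were called. The protease gene Ctsd rose by 1.70 and 1.40 and Ctsl by 1.60 and 1.89. Total-count scaling gave 9 higher and 12 lower in IgE cells and 9 and 11 in IgG1 cells, and the deposited TPM 7 and 13, and 5 and 14. Of 9 hypoxia genes, 3 were higher and 3 lower in IgE PC than in IgG1 PC, also near the 58.1% of all genes, with Vegfa, a vascular growth factor, at 1.5 and Ndrg1 at -1.0.

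Patterns across the 15 libraries are given as descriptions, because the libraries share 5 groups and these set most of each correlation. Pearson correlations of log2 CPM were highest between Sqstm1 and Atg5 (0.95) and between Map1lc3b and Ulk1 (0.94). Tfeb ran against Map1lc3b (-0.95) and Ulk1 (-0.92), and Becn1 against Bnip3 (-0.91), while Bnip3 and Gabarapl1, both highest at day 6, stood at 0.79. Among genes of at least 10 CPM, those most like Sqstm1 were Ubxn4 (0.995), Pla2g12a (0.992) and Txnl1 (0.992). Those most like Map1lc3b were Cnpy2, Ficd and Tor2a, each at 0.996. For Atg5 they were Mtdh (0.992), Srp72 (0.991) and Rab1a (0.991), for Ulk1 Rnf10 (0.989), Eif2ak3 (0.985) and Dcaf12 (0.985), and for Wipi1 Snd1 (0.991), Mydgf (0.990) and Hnrnpll (0.990). Tfeb was most like Nubp1 (0.995), Patz1 (0.992) and Twf2 (0.991), and Gabarapl1 like Ctsl (0.982), Rps27l (0.982) and Map1lc3a (0.977). Bnip3 was closest to Psmd5 (0.990), Txnrd1 (0.989) and Ltv1 (0.987), and Becn1 to Lrrc45 (0.983), Nprl2 (0.981) and Ppp1r12c (0.979). Atg7, with its narrow range, had no close match, the highest being Caskin2 (0.857), Nutf2 (0.850) and Mrpl17 (0.837).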

How the data were processed

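The deposited table holds, per gene and library, an RSEM expected count and a TPM value, per the file headers. The submitters' processing notes name cutadapt 1.9.1, STAR 2.5.2a, RSEM 1.3.0, DESeq2 1.12.3 and the build GRCm38, without their order or roles. Whether the authors' counting used the strand of the reads is not given in the sources used here. At least 90.9% of the expected counts the authors deposited were whole in each library (tolerance 1e-06).

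Expected counts were rounded. Of 51912 genes, 51633 had a symbol in GENCODE vM21, and 15692 passed edgeR's filter (minimum count 10, minimum total 15). The quasi-likelihood test of edgeR 4.0.16 (R 4.3.3) was fitted to all 15 libraries with 1 mean per group and TMM scaling (10 residual degrees of freedom, common dispersion 0.0109), with Benjamini-Hochberg adjustment over all genes tested in each of 9 comparisons and a threshold of 0.05. CPM are TMM-scaled, and a fold change in the deposited TPM is on the scale log2(TPM + 1), tested with limma 3.58.1. Alternatives were DESeq2 1.42.0, other scalings, filters, subsets, a replicate block and leaving out each library. A further TPM analysis, rescaled by TMM, was chosen after seeing the data. The test was checked on simulated data with the same dispersion for every gene and changes in IgE PC alone. It recovered 89 of 100 genes changed 2-fold and 53 of 100 changed 1.5-fold, with 5 false calls.

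The 10 genes and all lists were chosen with earlier results of these data known. Other list genes are named as at most 2 per list, comparison and direction with the largest called change and a mean of at least 10 CPM in a group compared. Genes most like a member are the 3 with the highest Pearson correlation of log2 CPM (offset 0.5). Replicate libraries correlated at 0.987 to 0.998 and differed by more than sampling noise. Promoter windows were taken from RefSeq. A planned comparison of the ATG8 proteins was not run, and 1 gene each of the planned B cell marker and lysosome lists is not reported here.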

Additional observations from a re-analysis of the deposited data

Results flagged for a closer look

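The step from iGC to PC differed between the isotypes for many genes by the test of the difference itself (edgeR's quasi-likelihood test, log2 change in IgE cells minus that in IgG1 cells), which called 42.9% of all genes tested. It called 3 of the 10 autophagy genes and 33 of the 60 machinery genes (28 positive and 5 negative, against 13 and 14 with total-count scaling and 12 and 8 in the deposited TPM). The 17 genes with values here are those 3 and 14 examples from the lists, picked after their values were seen from the genes that the naming rule allows. Among the 10 autophagy genes the differences were Sqstm1 (1.13, SE 0.14, adjusted p = 1.37e-05), Atg5 (0.78, SE 0.09, adjusted p = 6.67e-06) and Tfeb (-0.62, SE 0.10, adjusted p = 0.000167).

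Called were 3 of 4 genes of the ULK1 complex, 4 of 7 of the Beclin 1 complex and 6 of 9 of the phagophore list. Examples are Rb1cc1 (1.09, SE 0.15, adjusted p = 3.64e-05), Ulk2 (0.95, SE 0.11, adjusted p = 6.07e-06), Rubcn (-1.31, SE 0.15, adjusted p = 9.7e-06), Vmp1 (1.17, SE 0.13, adjusted p = 4.01e-06) and Tmem41b (1.06, SE 0.11, adjusted p = 2.21e-06). Rb1cc1 was called in the IgE step (1.24) and not in the IgG1 step (0.15), and Ulk2 fell in the IgG1 step (-0.41).

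Also with TMM scaling, 8 of 10 selective receptors (6 positive and 2 negative) and 4 of 6 receptors for the endoplasmic reticulum (4 positive) were called. The share over all genes was 42.9%, for these and the further lists of this paragraph. Examples are Fundc1 (0.93, SE 0.11, adjusted p = 1.34e-05), Bnip3l (0.80, SE 0.10, adjusted p = 1.4e-05), Optn (-0.80, SE 0.13, adjusted p = 0.000136), Sec62 (0.58, SE 0.14, adjusted p = 0.0043) and Rtn3 (0.54, SE 0.10, adjusted p = 0.000366). Of 16 mTOR and AMPK genes 10 were positive and 2 negative, of 5 transcription factors 5 were positive, and of 22 lysosome genes 5 were positive and 4 negative. Examples are Sesn2 (1.85, SE 0.11, adjusted p = 3.2e-08), Sesn3 (-1.05, SE 0.22, adjusted p = 0.00169), Foxo3 (0.55, SE 0.06, adjusted p = 9.38e-06) and Lamp2 (0.87, SE 0.11, adjusted p = 2.48e-05). The outlier check did not apply, since groups of 3 are too small for it.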

How the results depend on the processing

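Over the 9 comparisons and all alternatives, the 10 genes lost a call with the sign kept in 50 cases and gained one in 27. In 23 cases the sign changed and the main or the alternative analysis had a call. The remaining 1400 cases kept their side of the threshold, and sign changes between values that were both uncalled are counted among them. For the other named genes these counts were 34, 0, 1 and 1441. With total-count scaling Becn1 turned to -0.159 (IgE PC against day 6), -0.416 (IgE step), -0.214 (IgE PC against IgG1 PC, and the difference of steps) and -0.203 (IgG1 step), and Bnip3 to -0.229 (IgE step). In the deposited TPM the reversed values against day 6 were -0.304 for Atg5, -0.543 for Becn1 and -0.244 for Sqstm1 in IgE PC, -0.336 for Becn1 in IgG1 PC, and -0.169 and -0.219 for Map1lc3b in IgE and IgG1 iGC. In the IgE step they were -0.63 for Becn1, -0.497 for Bnip3, -0.009 for Gabarapl1 and -0.035 for Ulk1. In the IgG1 step they were -0.221 for Atg5, -0.554 for Atg7, -0.45 for Becn1, -0.067 for Gabarapl1, -0.082 for Ulk1 and -0.12 for Sesn2. Between the PC groups they were -0.207 for Becn1 and -0.084 for Bnip3. The medians of all genes moved the same way, and TPM rescaled by TMM, chosen after seeing the data, reversed none of them.

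Of the 10 genes, 1 (Ulk1) was called between the iGC groups by DESeq2, with total-count scaling and on the iGC libraries alone, and 0 otherwise. Leaving out each library in turn gave 3 to 7 calls in the difference of steps and 5 to 8 between the PC groups. It gave 7 to 8 in the IgE step, 7 in the IgG1 step and 0 between the iGC groups. Over all genes the same fits called, in that order, 5882 to 7418, 8223 to 9356, 9408 to 9692, 8326 to 9803 and 323 to 403. Calls over all genes moved by more than 1.5 times between the iGC groups (607, against 937 with DESeq2, 1503 on those libraries alone and 323 to 403 with 1 library left out) and for the difference of steps (6733, against 4345 in the deposited TPM). The cause was not tested.

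Same-numbered libraries did not deviate together (mean correlation -0.00682 over 30 pairs, 5 over 0.1), so the numbers were not treated as pairs. With the replicate block the counts of called genes among the 10 stayed at 7 between the PC groups, 0 between the iGC groups, 8 and 7 in the steps and 3 for their difference, and the call of Fundc1 between the iGC groups was lost (-0.30, adjusted p = 0.0739).

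With 3 libraries a group, a missing call does not show that levels were equal. Wipi1 in the iGC groups, with counts as low as 27, was the least precise. Protein levels and autophagic flux were not measured, and Map1lc3b and Sqstm1 are reported as RNA.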
